A study of Anguilla anguilla with 12 samples.

Results

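Eggs of the European eel were compared with oocytes of the same females across both ovulation-inducing steroids, as 6 pairs of libraries, so that the change shared by all females could be described gene by gene. All 12 libraries of the series took part. The 6 egg libraries (2, 4, 6, 8, 10 and 12) were made from eggs stripped after ovulation, and the 6 oocyte libraries (1, 3, 5, 7, 9 and 11) from oocytes taken with a cannula just before the injection. Eggs 2, 6 and 10 followed an injection of progesterone (P) and eggs 4, 8 and 12 one of DHP (the progestin 17α,20β-dihydroxy-4-pregnen-3-one), both at 2 mg per kg, so there were 3 pairs for each steroid. Oocytes 1, 5 and 9 belong to the P females and oocytes 3, 7 and 11 to the DHP females. All females were wild-type farmed eels, not wild-caught ones, and were feminized with 17β-estradiol as elvers. They then went through a simulated migration and carried an implant of 17-methyltestosterone and 17β-estradiol. Weekly injections of carp pituitary extract brought them to maturity. Maturation without such injections was not analysed here, and between eggs and oocytes the steroid, ovulation and the time that passed cannot be told apart. Libraries were paired by their order, and each pair is taken as 1 female, though no label ties a library to a female. On that reading, p-values measure the spread between these 6 females.

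A fully grown fish oocyte is arrested in the first meiotic prophase. A maturation-inducing steroid releases this arrest, and the egg that leaves the follicle is arrested again, at metaphase of the second meiotic division. Transcription is largely silent from maturation until the embryo activates its own genome, so the mRNAs stored in the egg are used by changing their poly(A) tails, their translation and their decay. Oocytes sampled with a cannula can carry the follicle cells around them and pieces of ovarian stroma and vessel, and ovulated eggs have left these layers. In the paper's samples for culture, some oocytes had follicle cells around them and others had only their membranes. How far the oocyte libraries varied in this was not tested. The libraries were made from RNA with poly(A) tails of many cells. A longer tail and more transcript, and likewise fewer cells of a type and less RNA per cell, could not be told apart.

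The libraries held 6612347 to 9903122 counted fragments, over 25211 genes with a count. The stage labels fitted the markers. Of 28 markers of follicle cells, 26 had a count, and together they took 0.00501 to 0.0223% of the counts of eggs against 0.0773 to 0.217% of those of oocytes. The egg share came largely from LOC118214003, the 1 marker that rose, with 6442 counts in all eggs together. The next highest marker in eggs, LOC118215491, held 551. The inhibin subunit inha held 0 counts in all eggs together against 705 in oocytes, and star, the cholesterol transporter of steroid-making cells, 2 against 646. Markers of germ cells were present in both stages, at 0.235 to 0.304% of the counts in eggs and 0.443 to 0.72% in oocytes. In egg library 8, more was left of transcripts that were low in the other eggs: of 4249 genes lower in eggs with at least 10 egg counts, library 8 alone held over 50% of those counts in 357, and each other egg library in 17 to 76. Oocyte library 3 had the highest oocyte level for 1693 (43.3%) of the genes higher in eggs.

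Most genes tested differed between the stages. Of 14957 genes tested with edgeR, 8489 (56.8%) were called at an adjusted p under 0.01, 3907 of them higher (26.1%) and 4582 lower in eggs (30.6%). Rises and falls are thus both common, and the counts of each list below are to be read beside these shares. With TMM scaling, falls were larger than rises: the median log2 fold change was 1.61 over the genes called higher and -2.33 over those called lower. On the same scaling, 98 genes rose while 750 fell by over 16-fold. These sizes move with the scaling, which is described below. The genes called higher were also the more abundant ones, with a median of their means of 889 normalized counts in eggs and 269 in oocytes, against 37.6 and 190 normalized counts in eggs and oocytes for the genes called lower. All 6 eggs lay above all 6 oocytes for 2780 genes (18.6%) and below them for 3274 (21.9%), so that 40.5% of genes had no overlap between the stages. No gene called higher lacked counts in all oocytes, and 56 genes called lower had 0 counts in all eggs.

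The split between rises and falls depended on the scaling, and all values below are relative to TMM scaling unless another is named. By library totals alone the median of all genes moved by -0.69 on the log2 scale, and 2304 genes were called higher and 6904 lower, against 3907 and 4582 with TMM. Upper-quartile scaling gave 3526 higher and 5156 lower. Scaling on germ cell genes moved the median by 1.18, and 7006 genes were called higher and 1917 lower. The set used for it is the germ cell list below, whose median was -1.30 with TMM, so an upward shift follows from that choice. Of its members tested, 26 are zona pellucida (egg coat) genes, with a median of -1.85, and the other 22 had a median of -0.36. Under all 5 scalings, 2304 genes (59.0%) remained higher and 1917 (41.8%) remained lower. The 242 named genes that were called kept their direction under each scaling. Those described below that lost the call under one are given as such. Of those not described below, mrpl51 (1.15) lost it by library totals and LOC118232241 (-1.83) on germ cell genes.

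The 6 pairs shared the sign for most of the called genes. All 6 pairs had the fitted sign for 8027 of the 8489 genes called, 5 pairs for 461 and fewer for 1, where 62.1% of all genes tested had 1 sign in all pairs. Across genes, which are not independent replicates, the log2 ratios of different pairs had r from 0.72 to 0.886 over the 15 combinations, and at least 0.832 in those without pair 3-4. Pair 3-4 had the opposite sign for 341 of the called genes (4.02%), and each other pair for 16 to 32. The median rise of the genes called higher was smallest in pair 3-4, at 1.25 against 1.59 to 1.87 in the others, and the median fall of the genes called lower was smallest in pairs 7-8 (-1.66) and 3-4 (-1.85), against -2.67 to -2.34 in the others. Without pair 3-4, 9019 genes were called, and 7802 without pair 7-8.

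Egg libraries were made of fewer transcripts at higher shares. The 100 most abundant genes took 23.6, 24.4 and 25.8% of the counts in eggs (lowest, median and highest) against 17.1, 18.8 and 21.3% in oocytes, higher in all 6 pairs (exact permutation of the signs over the 6 pairs, two-sided p = 0.03125, the smallest it allows). The share of the 10 most abundant genes differed in no fixed direction, with 6.76 to 7.72% in eggs and 5.88 to 8.89% in oocytes, higher in 3 of 6 pairs (exact p = 1). From 503 to 581 genes held 50% of the counts in eggs, against 957 to 1128 in oocytes. Fewer genes were seen at all: 17284 to 18898 had a count in eggs and 19471 to 21378 in oocytes, and after each library was reduced to the depth of the shallowest one the mean difference was -2946 genes. Counts of rRNA genes, a remainder after poly(A) selection, took 0.549 to 0.981% in eggs and 0.668 to 1.38% in oocytes.

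**Figure D1:**
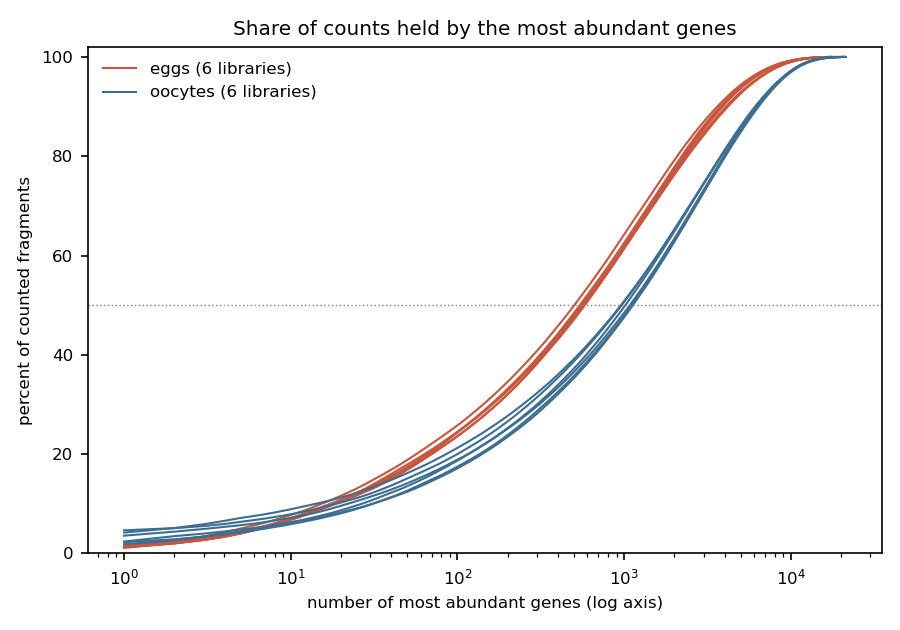
Cumulative percent of counts (vertical) against the number of most abundant genes (horizontal, log scale) for 6 egg and 6 oocyte libraries, 1 line each. At 100 genes the lines of all eggs (23.6 to 25.8%) lie above those of all oocytes (17.1 to 21.3%), and at 10 genes they overlap.

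The 12 genes with the largest fitted rise were higher by 5.80 to 7.29 on the log2 scale. tent4a (chromosome 8, 31223918 to 31241295 in the build fAngAng1.pri), a poly(A) polymerase that extends RNA tails outside the classical pathway, had 3319, 6080 and 7916 normalized counts in eggs (lowest, median, highest) against 14.2, 28.2 and 311 in oocytes. Its log2 fold change was 7.29 ± 0.63 (SE, n = 6 pairs, edgeR adjusted p = 5.99e-06). The origin recognition subunit orc6 had 5415, 6225 and 7499 normalized counts in eggs and 9.25, 36.7 and 397 in oocytes (7.07 ± 0.66, edgeR adjusted p = 8.59e-06). For both genes the highest oocyte was library 3, whose level was still below that of every egg.

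gmnn (chromosome 8, 35962601 to 35968122) encodes geminin, which blocks the loading of the replicative helicase. It had 7685 to 20834 normalized counts in eggs (median 8532) and 59.6 to 993 in oocytes (median 137), and rose by 6.01 ± 0.38. Its target cdt1, the loading factor itself, rose less, by 2.03 ± 0.16, as did its partner cdc6, by 2.59 ± 0.15 (5457 to 9068 normalized counts in eggs and 946 to 1543 in oocytes). Both the factors that load the helicase and the inhibitor thus stood higher in every egg than in any oocyte. cdc25b, a phosphatase that activates the cyclin B kinase, rose by 5.94 ± 0.25 (edgeR adjusted p = 9.39e-07), with pair ratios from 5.10 to 6.78.

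raver1, a cofactor of the splicing repressor PTB, rose by 6.63 ± 0.37, and dnd1, a germ cell protein that keeps small RNAs from binding their targets in zebrafish, by 5.80 ± 0.37 (163 to 306 normalized counts in eggs and 1.03 to 7.1 in oocytes). suv39h1a, a methyltransferase of histone H3, had 250 to 503 normalized counts in eggs and 0 to 46.6 in oocytes, a change of 6.50 ± 0.83. arhgap19 rose by 6.47 ± 0.77. The most counts among the 12 belonged to si:dkeyp-114g9.1, an uncharacterized protein, with 14545 to 25490 normalized counts in eggs and 120 to 643 in oocytes. LOC118221615 (inactive tyrosine-protein kinase 7-like), LOC118231133 (cat eye syndrome critical region protein 2-like) and the uncharacterized LOC118208328 were the remaining rises. Of the 98 genes that rose by over 16-fold, 86 had their highest oocyte level in library 3, and its part in the size of the rises was not tested further. Without pair 3-4 these 12 genes kept their calls.

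**Figure D2:**
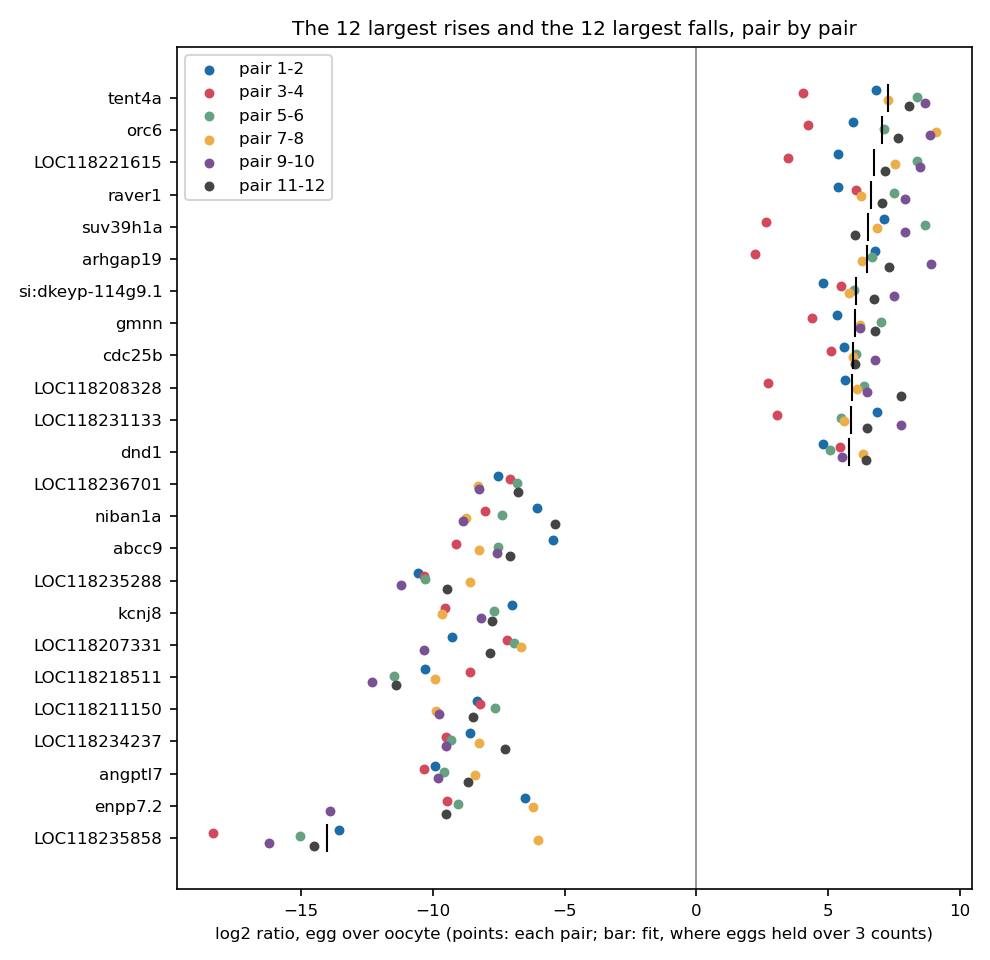
Log2 ratio of egg to oocyte (horizontal) in each of 6 pairs for the 12 genes with the largest rise and the 12 with the largest fall, points coloured by pair, with a bar for the fitted change where eggs held over 3 counts in all. Pair 3-4 gives the lowest rise for most of the 12 genes that rose, and pair 7-8 the smallest fall of LOC118235858, at -5.99.

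Of the 10 most abundant egg transcripts, 4 encode parts of the division machinery. ccnb1 (chromosome 14, 10448477 to 10451835), which encodes cyclin B1, was the first in eggs, with 127520, 137911 and 179467 normalized counts there against 7432, 9096 and 17590 in oocytes (3.83 ± 0.23, edgeR adjusted p = 1.38e-06). ccna1, cyclin A1, had 69902 to 105467 normalized counts in eggs and 1440 to 7588 in oocytes (3.93 ± 0.36), and ccnb2, cyclin B2, 67870 to 89714 and 5609 to 11585 (3.34 ± 0.19). The 3 cyclins stood far apart between the stages in every library. cdc20, the activator of the anaphase-promoting complex that has cyclin B destroyed, was abundant in both stages, with 64734 to 120942 normalized counts in eggs and 18591 to 40363 in oocytes (1.65 ± 0.17).

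Others of the most abundant transcripts were shared by both stages and rose less. LOC118211021 (protein B4, the linker histone of frog eggs and early embryos) had 62264 to 74627 normalized counts in eggs and 21133 to 30774 in oocytes (1.38 ± 0.14). The lysosomal protease ctsba, which takes part in the processing of yolk in fish oocytes, rose by 1.37 ± 0.16, LOC118234813 (claudin-like protein ZF-A89, of tight junctions) by 1.58 ± 0.16 and LOC118222665 (heterogeneous nuclear ribonucleoprotein A0-like) by 2.71 ± 0.17. LOC118225704 (cold-inducible RNA-binding protein B-like) rose by 1.10 ± 0.16 with TMM and was not called by library totals (0.41). 3 of the most abundant genes were not called. The log2 fold change of LOC118220535 (cathepsin S-like) was -0.46 ± 0.16 (edgeR adjusted p = 0.025, and 0.73 under scaling on germ cell genes), that of the chaperone hsp90ab1 -0.50 ± 0.19 (0.0356, and 0.69) and that of the rRNA gene LOC118234779 0.23 ± 0.14 (0.158, and -0.46 by library totals).

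Cyclins and their kinases went both ways in number, and their share of the library was higher in every egg than in any oocyte. Of 72 members tested, 24 rose and 22 fell (median -0.11 beside -0.23 over all genes tested, and 1.06 under scaling on germ cell genes), and together they took 3.85 to 4.68% of the counts in eggs and 1.11 to 1.35% in oocytes. The 3 abundant cyclins above weigh heavily in this share: ccnb1 alone held 98979 to 126238 counts per egg library and 8134 to 22655 per oocyte library. By product name, 19 of 67 genes of the cyclin family rose and 23 fell (median -0.39, changes from -7.29 to 4.13). Members named here are rises, and the 22 falls are not named. LOC118222606, another cdc25-like phosphatase (M-phase inducer phosphatase 1-B-like), rose by 3.18 ± 0.17 and LOC118236341 (cyclin-J-like) by 4.06 ± 0.24. In the anaphase complex and checkpoint list, 11 of 32 rose and 10 fell (median -0.03, and -0.72 by library totals and 1.15 on germ cell genes). The members named were securin (pttg1, 2.05 ± 0.15), separase (espl1, 2.74 ± 0.23), mad2l1bp (1.94 ± 0.15), which takes the checkpoint protein Mad2 off its target, and LOC118233086 (F-box only protein 43-like, 1.55 ± 0.14). FBXO43, or Emi2, holds the vertebrate egg in metaphase by blocking the anaphase-promoting complex. Its transcript had 27477, 36945 and 41640 normalized counts in eggs and 9993, 11729 and 14384 in oocytes, so both the separase system and the inhibitor that keeps it waiting were higher in eggs.

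Of 92 kinetochore, spindle and centrosome genes, 39 rose and 22 fell (median 0.44, and -0.25 by library totals). These are 42.4% and 23.9%, beside 26.1% and 30.6% of all genes tested. anln, an organiser of the contractile ring, had 6552, 9069 and 11811 normalized counts in eggs against 210, 259 and 466 in oocytes (5.09 ± 0.22, edgeR adjusted p = 9.39e-07). tpx2, which nucleates spindle microtubules, had 35906 to 51883 normalized counts in eggs and 2641 to 6063 in oocytes (3.48 ± 0.18). aspm of the spindle poles (2.50 ± 0.15) and spc25 of the kinetochore (2.61 ± 0.18) rose as well, while zw10 (-2.52 ± 0.23), mis18a (-2.07 ± 0.19) and cenps (-3.40 ± 0.35), which work at centromeres and kinetochores, fell. Of 89 motor proteins of microtubules, 31 rose (34.8%) and 23 fell (25.8%), with a median of -0.05, and 1.14 on germ cell genes. kif22, a kinesin that pushes chromosomes to the plate, rose by 3.25 ± 0.19, kifc3 by 3.40 ± 0.24, kifap3a by 2.29 ± 0.16 and the depolymerase kif2c by 1.72 ± 0.14.

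Of 24 tubulin genes, 12 fell, 2 rose and 10 were not called (median -1.93, with 0.157 to 0.301% of the counts in eggs and 0.368 to 0.571% in oocytes). LOC118222970 (tubulin alpha chain-like) had 1.2 to 19.3 normalized counts in eggs and 432 to 1034 in oocytes (-5.86 ± 0.42), and LOC118234106 (tubulin beta chain-like) 24 to 91.3 and 568 to 1193 (-4.06 ± 0.27). The 2 that rose were LOC118211835 (tubulin alpha chain, testis-specific-like, 1.93 ± 0.23) and tube1 (1.67 ± 0.17), whose epsilon-tubulin belongs to centrioles. Similar tubulin genes may share reads.

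Among 59 genes of DNA replication, 23 rose and 17 fell (median 0.15, and -0.54 by library totals). Apart from the licensing genes, rrm2b, a subunit of ribonucleotide reductase, rose by 2.49 ± 0.19. mcm4 of the helicase fell by 2.73 ± 0.27, pole4 by 2.70 ± 0.33 and top2a, the topoisomerase that untangles sister DNA, by 3.73 ± 0.46 (50.3 to 353 normalized counts in eggs and 885 to 2774 in oocytes). Of 40 genes of cohesin, condensin and meiosis, 19 rose and 8 fell (median 0.69, and -0.00 by library totals), or 4 fell without pair 5-6 or 11-12. esco2, which acetylates cohesin, rose by 2.06 ± 0.14, smchd1 by 2.19 ± 0.16, the junction nuclease eme1 by 2.73 ± 0.20 and rmnd5b by 3.41 ± 0.23. wapla, which releases cohesin, fell to 5.73 to 14.4 normalized counts in eggs, against 39.1 to 99.4 in oocytes. mnd1 (-2.09 ± 0.30) and ncaph2 (-1.38 ± 0.22) fell too, without a call under scaling on germ cell genes.

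Germ cell genes went both ways. Of 48 tested, 6 rose and 26 fell (median -1.30, and -0.11 when scaled on this list itself). Of the falls, 18 were among the 26 zona pellucida genes, which encode the egg coat and of which 0 rose (median -1.85). LOC118229182 (zona pellucida sperm-binding protein 4-like) had 21.3, 44.7 and 197 normalized counts in eggs against 368, 659 and 2202 in oocytes (-3.82 ± 0.20), and LOC118233982 (protein 3-like) changed by the same amount, with pair ratios from -4.91 to -2.97. These genes form a family of near copies and may share reads. Outside this family 6 of 22 rose and 8 fell. Among the falls, chosen after their values were seen, were zar1l (-3.96 ± 0.39), like the maternal factor zygote arrest 1, figla, a transcription factor of early follicles (-2.12 ± 0.37), and gdf9, a growth factor of the oocyte (-1.75 ± 0.42). Among the rises, ddx4 (chromosome 14, 11834549 to 11849707), the RNA helicase Vasa of germ plasm, stood with 697, 1036 and 2163 normalized counts in eggs and 23.7, 46.9 and 83.1 in oocytes (4.56 ± 0.28, edgeR adjusted p = 1.55e-06). wee2, a kinase that holds meiosis by phosphorylating Cdk1, also rose, with 3774 to 9013 normalized counts in eggs and 1014 to 1533 in oocytes (2.44 ± 0.19).

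The 3 factors that activate the zygotic genome in zebrafish were higher in every egg. pou5f3 (chromosome 14, 4650402 to 4656069) had 2915, 4857 and 6682 normalized counts in eggs against 38.8, 115 and 304 in oocytes (5.38 ± 0.29, edgeR adjusted p = 1.06e-06). nanog had 12001, 14342 and 17405 in eggs and 1324, 1570 and 2677 in oocytes (3.07 ± 0.17), and sox19b 19435, 21014 and 23000 in eggs and 6000, 6617 and 8155 in oocytes (1.63 ± 0.13). Over the whole list of early embryo transcription factors, 12 of 36 rose and 11 fell (median -0.35, and 0.85 on germ cell genes). gata6, a factor of mesoderm and of gonadal somatic cells in mammals, fell by 8.05 ± 0.71, with 0 to 68.1 normalized counts in eggs and 1399 to 3720 in oocytes. Egg library 8 held 53 of its 73 egg counts.

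Of 72 genes of Wnt, TGF-beta and Notch signals, 19 rose and 24 fell (median -0.28, and 0.90 on germ cell genes), or 12 rose without pair 9-10. These shares, 26.4% higher and 33.3% lower, lie near those of all genes tested (26.1% and 30.6%). ctnnb1, beta-catenin, rose by 1.82 ± 0.16 (10521 to 16851 normalized counts in eggs and 2474 to 4901 in oocytes), dvl2, which passes the Wnt signal on to it, by 2.20 ± 0.16, and the activin receptor acvr1ba by 2.77 ± 0.22. The growth factor bmp6 held 2 counts in all eggs and 1917 in all oocytes, which is 623-fold lower in eggs (95% interval 172 to 5145). A smad4 gene, si:dkey-239n17.4, held 3 counts in eggs and 1125 in oocytes (244-fold lower, 83.1 to 1183). These intervals, and the bounds further down, cover counting error only.

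Histone genes went both ways, and so did the histone variants named here. Of 27 tested, 11 rose and 8 fell (median 0.04, and -0.67 by library totals), and the list took 1.02 to 1.33% of the counts in eggs and 0.607 to 0.748% in oocytes. Both H3.3A genes, LOC118216390 (2.34 ± 0.16) and LOC118217266 (2.79 ± 0.17), H2A.Z (LOC118226988, 2.62 ± 0.17) and macro-H2A.2 (LOC118217642, 2.99 ± 0.17) rose. LOC118216390 had 14109 to 23243 normalized counts in eggs and 2540 to 6028 in oocytes. H1.0-B (LOC118216562), a linker histone of resting somatic cells in mammals, had 2.39 to 53.9 normalized counts in eggs and 962 to 3071 in oocytes (-6.23 ± 0.55), and LOC118212323 (H2A-like, -4.07 ± 0.55) and H2A.V (LOC118212478, -3.68 ± 0.61) fell as well. Messages of the histones made in S phase lack poly(A) tails as a rule, so that few of them can be seen in such libraries.

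Chromatin genes were split, with 57 of 163 higher and 42 lower (median -0.05, and 1.14 on germ cell genes). ash2l, a core subunit of the H3K4 methyltransferases, rose by 3.49 ± 0.23, cbx3a, a reader of H3K9 methylation, by 3.37 ± 0.24 (12834 to 17715 normalized counts in eggs and 968 to 2864 in oocytes), LOC118233758 (CHD7-like helicase) by 4.26 ± 0.29 and LOC118211277, of the SWI/SNF complex, by 2.59 ± 0.18.

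Of 90 genes of poly(A) tails and mRNA decay, 19 rose and 28 fell (median -0.36, and 0.84 on germ cell genes), and nucleases that shorten tails changed in opposite directions. The list shares were 21.1% higher and 31.1% lower, beside 26.1% and 30.6% of all genes tested. cnot8, a deadenylase of the CCR4-NOT complex, had 13731, 17677 and 20367 normalized counts in eggs against 2655, 2818 and 3450 in oocytes (2.56 ± 0.15, edgeR adjusted p = 1.41e-06). parn, the poly(A)-specific ribonuclease that shortens tails in frog oocytes, had 138, 329 and 834 in eggs and 3413, 4671 and 6324 in oocytes (-3.84 ± 0.31, edgeR adjusted p = 4.39e-06). The groups did not overlap for either gene. exosc10, the catalytic subunit of the nuclear exosome, rose by 1.81 ± 0.15.

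Splicing factors had the highest share of members called higher among the 40 lists, 55.6% beside 26.1% of all genes tested. Of 160 tested, 89 rose and 31 fell (median 0.91, 0.22 by library totals and 2.10 on germ cell genes), and they took 3.83 to 5.08% of the counts in eggs and 2.01 to 2.79% in oocytes. hnrnpm had 7158 to 12837 normalized counts in eggs and 549 to 1519 in oocytes (3.67 ± 0.17), and LOC118213110 (heterogeneous nuclear ribonucleoprotein K-like, 3.31 ± 0.20) and slu7, a factor of the second splicing step (2.70 ± 0.17), rose with it. Against the list, the small subunits sf3b5 (-2.65 ± 0.27), LOC118213717 (U2AF 35 kDa subunit-like, -2.69 ± 0.28) and lsm4 (-3.12 ± 0.34) fell.

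**Figure D3:**
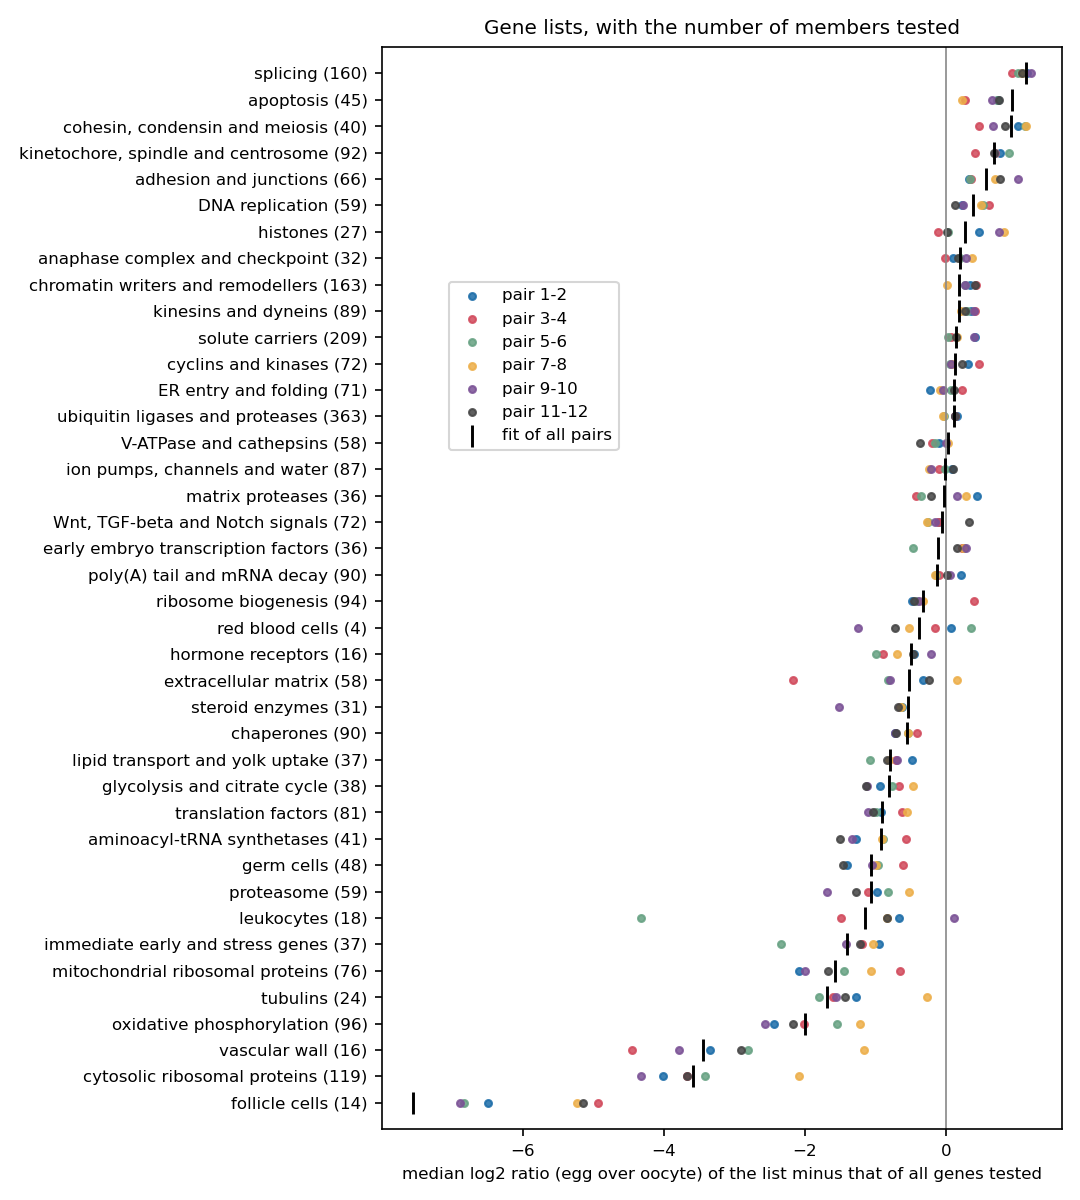
Median log2 ratio of egg to oocyte of 40 gene lists minus that of all genes tested (horizontal), with a point per pair and a bar for the fit of all pairs. Splicing lies above 0 in all 6 pairs, cytosolic ribosomal proteins and oxidative phosphorylation lie below 0 in all 6, and follicle cells lie lowest.

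Genes of the cytosolic ribosome fell as a group. Of 119 tested, 113 fell and 0 rose (median -3.82, and -2.63 on germ cell genes), and the list took 0.0909 to 0.332% of the counts in eggs against 1.22 to 2.33% in oocytes. The highest egg was library 8 and the median of the list over pairs ran from -4.57 to -2.22. Small-subunit genes (50 of 53 lower, median -3.78) and large-subunit genes (60 of 63 lower, median -3.86) fell alike in number. rpl3 (chromosome 17, 20657249 to 20663543) had 105, 128 and 433 normalized counts in eggs against 1671, 2076 and 2956 in oocytes (-3.82 ± 0.26, edgeR adjusted p = 2.1e-06), rps3a 70, 88 and 429 against 1499, 2152 and 3423 (-4.31 ± 0.30), and LOC118235015 (ribosomal protein L39) 3.59, 10.3 and 13 against 238, 396 and 495 (-5.37 ± 0.36).

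Other parts of translation fell less evenly. Of 76 mitochondrial ribosomal proteins, 52 fell and 6 rose (median -1.81), among them mrpl3 (-3.80 ± 0.43) and mrps18a (-3.74 ± 0.36) on the one side and mrps14 (1.23 ± 0.16) and mrps36 (1.29 ± 0.17) on the other. Of 81 translation factors, 45 fell and 18 rose (median -1.14, and 0.02 on germ cell genes). LOC118225885 (elongation factor 2) had 98.5 to 542 normalized counts in eggs and 1842 to 3447 in oocytes (-3.84 ± 0.30), and eef1b2 (-3.40 ± 0.26) and eif2s3 (-3.67 ± 0.30) fell as well. The RNA helicase eif4a1a was far more abundant than these and rose, with 20520, 49059 and 56600 normalized counts in eggs and 7407, 15834 and 18905 in oocytes (1.53 ± 0.14). LOC118232841 (initiation factor 1b, 2.02 ± 0.19) and eif3s10 (1.69 ± 0.16) rose with it.

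Of 41 genes of aminoacyl-tRNA synthetases, 23 fell and 5 rose (median -1.15, and 0.04 on germ cell genes). LOC118209230, the cytoplasmic enzyme for tryptophan, fell by 4.15 ± 0.43 and hars, for histidine, by 3.78 ± 0.38. The 5 that rose were vars2 (2.02 ± 0.21), tars2 (1.51 ± 0.20) and kars1 (1.26 ± 0.13), together with LOC118215833 (1.13) and aimp2 (1.05), which were named after their values had been seen. In ribosome biogenesis 28 of 94 rose and 38 fell (median -0.56, and 0.63 on germ cell genes), and the 4 with the smallest p rose: npm1a (1.96 ± 0.15), the RNA polymerase I subunit polr1a (2.10 ± 0.17), mybbp1a (2.25 ± 0.19) and ddx18 (1.85 ± 0.15).

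Most genes of the respiratory chain fell, and none of complex II did. Of 96 genes of oxidative phosphorylation, 77 fell and 5 rose (median -2.23, and -1.05 on germ cell genes), with 0.19 to 0.456% of the counts in eggs and 0.644 to 1.15% in oocytes. In complex I 32 of 36 fell (median -2.27), in complex III 8 of 13 (-1.39), in complex IV 17 of 20 (-2.51) and in ATP synthase 20 of 23 (-3.27). In complex II, 0 of 4 fell and sdhb (0.76 ± 0.19, edgeR adjusted p = 0.00487) and sdhc (0.85 ± 0.24, edgeR adjusted p = 0.00979), named after their values had been seen, rose (median 0.51). Both rises were little larger than the shift of -0.69 that library totals gave the median of all genes. They thus depend on the scaling. atp5mc1, of the membrane ring of ATP synthase, had 45.8, 67.9 and 279 normalized counts in eggs and 633, 1194 and 1451 in oocytes (-3.72 ± 0.36), and LOC118208690 (complex III subunit 1) fell by 2.66 ± 0.21. The other rises were LOC118222194 (complex III subunit 8, 0.90 ± 0.15), atp5mpl (0.92 ± 0.19) and LOC118235104 (cytochrome c oxidase subunit 8A, 0.73 ± 0.15), none of them called by library totals. Without any pair but 3-4, 3 genes of the list were called higher.

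Of 38 genes of glycolysis and the citrate cycle, 21 fell and 6 rose (median -1.04, and 0.16 on germ cell genes). aldoaa (-4.05 ± 0.31) and gapdhs (-3.53 ± 0.36), enzymes of the main path, fell, and pfkfb4a, which makes an activator of it, had 6236 to 8266 normalized counts in eggs and 875 to 1792 in oocytes (2.49 ± 0.18).

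Over 50% of the proteasome genes tested fell, and activators of the proteasome went both ways. Of 59 tested, 32 fell and 5 rose (median -1.30, and -0.11 on germ cell genes), with psma1 of the core at -3.19 ± 0.27, psmd1 of the cap at -2.46 ± 0.20 and LOC118232999 (regulatory subunit 4-like) at -4.13 ± 0.37. LOC118232855 (activator subunit 2-like) had 2.39 to 27 normalized counts in eggs and 152 to 483 in oocytes (-4.63 ± 0.39). The activator psme4a, which in mammals helps to degrade histones, rose by 2.19 ± 0.22, and psme3ip1 (1.23 ± 0.17, not called by library totals) and LOC118220134 (regulatory subunit 11-like, 1.22 ± 0.14) rose. psme1 (1.08) and psmb10 (0.87), named after their values had been seen, were the other rises.

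Of 363 ubiquitin ligases and proteases, 101 rose (27.8%, beside 26.1% of all genes tested) and 117 fell (32.2%, beside 30.6%), shares near those of all genes (median -0.11, and 1.07 on germ cell genes). They took 1.9 to 2.05% of the counts in eggs and 1.9 to 2.15% in oocytes. The ligases hace1 (3.61 ± 0.27) and trim47 (3.30 ± 0.25) and the deubiquitinases LOC118214219 (USP37-like, 2.74 ± 0.19) and otud4 (2.40 ± 0.16) had the smallest p and rose. Of 90 chaperones, 11 rose and 38 fell (median -0.78, and 0.41 on germ cell genes). LOC118218382 of the chaperonin TRiC fell by 2.40 ± 0.20 and dnajc18 rose by 2.63 ± 0.21.

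Of 71 genes of entry into the endoplasmic reticulum and folding there, 18 rose and 26 fell (median -0.11, and 1.08 on germ cell genes). These are 25.4% and 36.6%, beside 26.1% and 30.6% of all genes tested. The 4 with the smallest p fell. sil1, the exchange factor of the chaperone BiP, had 18.5, 38 and 132 normalized counts in eggs against 2196, 2915 and 6127 in oocytes (-6.29 ± 0.42), and BiP itself (LOC118206675) 482, 498 and 592 against 2845, 3634 and 7963 (-3.03 ± 0.25). stt3a (-3.88 ± 0.29) and rpn2 (-2.82 ± 0.17), which attach sugars to entering proteins, also fell. Against these, the coat proteins of export vesicles sec24a and sec31a each rose by 2.17 ± 0.23, and the retrieval receptor kdelr2b by 1.58 ± 0.15.

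Lysosomal genes included several of the rises among abundant transcripts, in a list of V-ATPase and cathepsins with 11 of 58 higher and 18 lower (median -0.20, and 0.99 on germ cell genes). ctsla, a cathepsin L, had 9427, 15005 and 16164 normalized counts in eggs and 525, 1193 and 3662 in oocytes (3.48 ± 0.33), lamp2 of the lysosomal membrane rose by 3.68 ± 0.35 and ctsd, cathepsin D, by 1.67 ± 0.14. atp6v0cb of the proton pump fell by 2.18 ± 0.21. Of 37 genes of lipid transport and yolk uptake, 10 rose and 18 fell (median -1.03, and 0.15 on germ cell genes). The lipase lpl, which frees fatty acids from lipoproteins, had 0, 5.09 and 67.9 normalized counts in eggs and 1623, 4142 and 8145 in oocytes (-8.63 ± 0.86), while LOC118227957 and LOC118214493, like receptors of low-density lipoprotein, rose by 2.29 ± 0.27 and 1.92 ± 0.24 and apol1 by 2.58 ± 0.24.

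The largest falls were transcripts that eggs all but lacked. LOC118235858 (alpha-2-macroglobulin-like, chromosome 9, 19004943 to 19043868), an inhibitor of proteases, was the most abundant transcript of oocytes, with 125693, 199640 and 333836 normalized counts there against 0, 3.96 and 3807 in eggs (-14.01 ± 1.58, edgeR adjusted p = 2.53e-05). Its counts before scaling were 147969 to 429974 in oocytes, and in eggs 2964 in library 8 and 0 to 10 in the other libraries. Over the 12 largest falls together, 5 egg libraries held 0 to 12 counts and library 8 held 2969, of which 5 came from genes other than LOC118235858. In the oocyte libraries the 12 genes held 154774 to 438340 counts (1.94 to 4.74%). Of these, 6805 to 29327 per library came from genes other than LOC118235858.

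For the other 11 of these falls the eggs held at most 3 counts in all, so bounds or counting intervals are given in place of the fitted change. angptl7, a secreted angiopoietin-like protein, had 0 counts in eggs and 5813 in oocytes, at least 1259-fold lower in eggs against a floor of 3 counts over the group. On the same floor LOC118234237 (mucin-5AC-like) was at least 782-fold lower, LOC118211150 (monocarboxylate transporter 5-like) at least 723-fold, niban1a at least 352-fold and LOC118236701 (solute carrier family 22 member 5-like) at least 286-fold lower. The channel subunits kcnj8 and abcc9, which form one potassium channel in vessel walls, were at least 601-fold and 367-fold lower (392-fold and 213-fold without pair 3-4), and LOC118207331 (myosin-7-like) at least 628-fold lower (328-fold without pair 9-10). enpp7.2 held 1 count in eggs and 18903 in oocytes (12280-fold lower, 95% interval 2204 to 485061), and LOC118235288 (transmembrane 9 superfamily member 2-like) 3 and 10699 (2317-fold lower, 793 to 11236). Oocyte library 9 held 16082 of the enpp7.2 counts and the other oocyte libraries 113 to 902 each. The fold and interval of enpp7.2 thus rest largely on pair 9-10. Each of these 11 genes thus held 3 or fewer counts over 6 egg libraries.

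**Figure D4:**
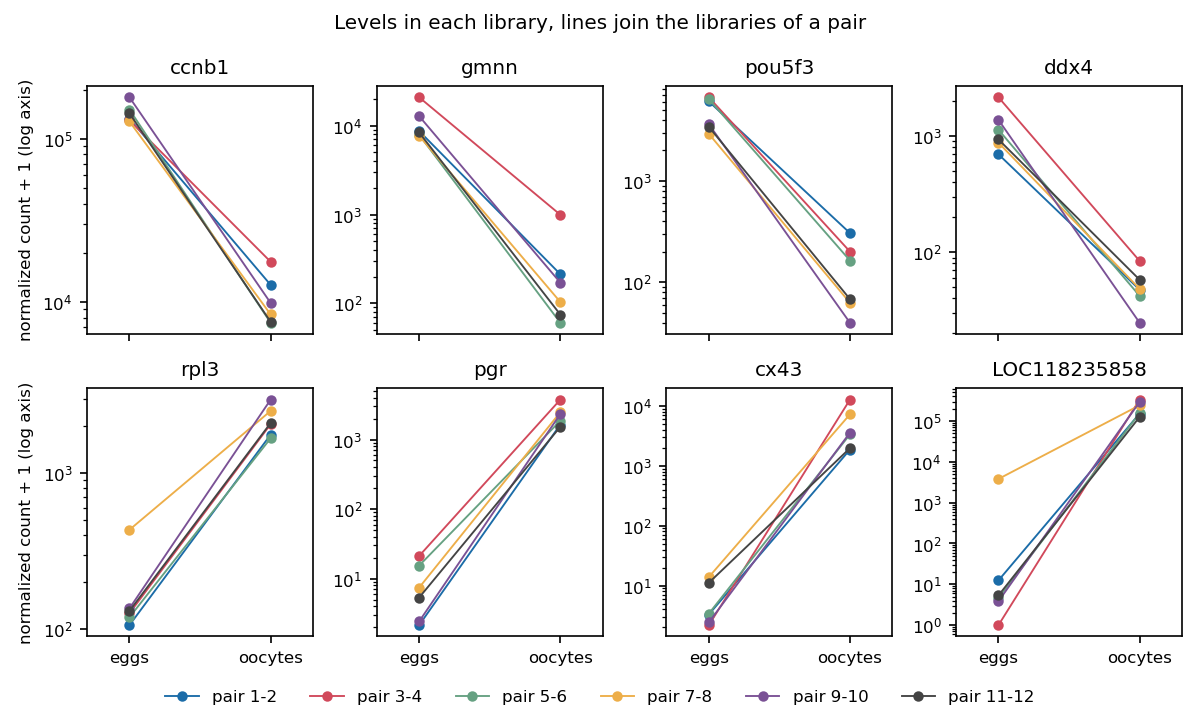
Normalized count plus 1 (vertical, log scale) in each library for 8 genes, eggs left and oocytes right in each panel, with a line joining the libraries of a pair. ccnb1, gmnn, pou5f3 and ddx4 lie higher in all eggs, rpl3, pgr, cx43 and LOC118235858 lie lower, and egg library 8 stands above the other eggs for LOC118235858.

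Markers of follicle cells fell together. Of 14 tested, 13 fell and 1 rose, with a median of -7.79, or -7.36 with genes at 0 set to their bound. Of the 28 members, 14 passed the filter, and most of these had nearly all their counts in oocytes. Members low in both stages were not tested, so this count and median are shaped by the filter. LOC118218511 (chromosome 18, 28910848 to 28917387), the steroid 17α-hydroxylase, held 3 counts in eggs and 20754 in oocytes, which is 4494-fold lower in eggs (95% interval 1538 to 21794). hsd17b1, which makes estradiol from estrone, was 695-fold lower (192 to 5746), star 210-fold lower (57.9 to 1736), and the receptor of luteinizing hormone, lhcgr, 290-fold lower (99.0 to 1408). The transcription factor of steroidogenic cells nr5a2 was 396-fold lower (109 to 3271), and foxl2a, a factor of granulosa cells, held 11 counts in eggs and 4487 in oocytes. The 1 that rose, LOC118214003 (a 3β-hydroxysteroid dehydrogenase-like gene, 1.04 ± 0.25, edgeR adjusted p = 0.00333), lies beside LOC118214002, which held 95 counts in eggs and 11906 in oocytes, and near copies may share reads. LOC118214003 was not called by library totals (0.34), nor without pair 1-2, 5-6, 7-8 or 9-10 (0.97, 0.93, 0.94 and 0.91).

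Markers of other cell types differed by list. Of 16 markers of the vascular wall, 11 fell and 0 rose (median -3.68), with acta2, the actin of smooth muscle, at 0, 1.31 and 43.7 normalized counts in eggs and 297, 580 and 1719 in oocytes (-7.26 ± 0.93). Of its 40 egg counts, library 8 held 34. Of the 28 members of the vascular list, 16 passed the filter, and several had nearly all their counts in oocytes (kcnj8 0 in eggs and 2775 in oocytes, abcc9 0 and 1696). Its count and median are therefore shaped by the filter. The filter also passed only 4 of 15 markers of red blood cells and 18 of 34 markers of leukocytes. Of 4 markers of red blood cells, LOC118216920 (hemoglobin beta-like, -3.84 ± 0.80) and rhag (-1.59 ± 0.25, not called on germ cell genes) fell, and epb41b, a protein of the membrane skeleton in many cell types, rose by 3.13 ± 0.21 (median -0.61, and 0.57 on germ cell genes). Of 18 markers of leukocytes, cd4-2.2 (-5.67 ± 0.58) and ccr12a (-2.80 ± 0.69) fell and LOC118213862 (CD3 zeta chain-like) rose by 1.48 ± 0.21 (median -1.39, and -0.17 on germ cell genes). Without pair 5-6 or 11-12, 1 marker was called lower, and 4 without pair 9-10. ccr12a was not called under scaling on germ cell genes (-1.64) or without pair 5-6 or 9-10 (-2.40 and -2.96). The leukocyte markers took 0.00307 to 0.0151% of the counts in eggs and 0.00845 to 0.0466% in oocytes. Their median over the pairs ran from -4.54 to -0.12, so the pairs differed widely. What part of the falls elsewhere came with these cells was not tested.

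Genes of the extracellular matrix spread widely. Of 58 tested, 25 fell and 10 rose (median -0.76, and 0.43 on germ cell genes). LOC118214884 (collagen alpha-2(I) chain-like) had 0, 5.96 and 392 normalized counts in eggs and 2586, 15073 and 53524 in oocytes (-10.17 ± 1.09), and 305 of its 325 egg counts were in library 8. LOC118225714 (collagen XV-like, -6.99 ± 0.51) and col5a2a (-6.59 ± 0.61) fell, and col1a1b was 574-fold lower in eggs (159 to 4740). Other collagen genes rose, among them LOC118231824 (alpha-2(I) chain-like, 1.95 ± 0.21, with 430 to 851 normalized counts in eggs and 122 to 246 in oocytes) and si:ch211-196i2.1 (alpha-1(I) chain, 2.87 ± 0.35). Of 36 matrix proteases and inhibitors, 6 rose and 7 fell (median -0.26, and 0.91 on germ cell genes). These shares, 16.7% and 19.4%, lie below those of all genes tested (26.1% and 30.6%). LOC118216473 (metalloproteinase inhibitor 2-like) rose by 3.30 ± 0.25, adam17b, a sheddase, by 2.69 ± 0.26, and adamtsl5 fell by 6.89 ± 0.58.

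cx43 (chromosome 6, 51738339 to 51744352), which forms gap junctions between follicle cells and between these and the oocyte, had 1.19, 2.34 and 12.8 normalized counts in eggs against 1861, 3457 and 12708 in oocytes (-9.85 ± 0.54, edgeR adjusted p = 1.24e-06). cx34.5 had 0 to 5.14 normalized counts in eggs and 236 to 1955 in oocytes (-9.92 ± 0.56). All 3 connexin genes tested fell, beside 30.6% of all genes tested. Connexin genes low in both stages did not pass the filter, so this count says nothing about them. Of 66 genes of adhesion and junctions, 23 rose and 20 fell (median 0.33, and -0.35 by library totals), and the list took 1.18 to 1.31% of the counts in eggs and 0.671 to 1.05% in oocytes. LOC118215802 (B-cadherin-like) had 7965, 8633 and 11666 normalized counts in eggs and 1334, 1706 and 2189 in oocytes (2.42 ± 0.14), and its binding partner ctnnd1, p120-catenin, rose by 4.33 ± 0.35.

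Among hormone receptors, those called were lower in eggs with 1 exception. Of 16 tested, 8 fell and 1 rose (median -0.73, and 0.46 on germ cell genes), or 2 rose without pair 3-4. pgr (chromosome 12, 40488883 to 40498281), the nuclear progestin receptor, had 1.15, 5.38 and 20.2 normalized counts in eggs against 1521, 2090 and 3742 in oocytes (-8.25 ± 0.41, edgeR adjusted p = 1.06e-06), without overlap and with pair ratios from -9.90 to -6.92. The estrogen receptor esr2b fell by 4.71 ± 0.39. The 1 that rose, paqr3a, belongs to the family that holds the membrane progestin receptors but is known in mammals as a regulator of Raf at the Golgi. It had 324, 433 and 546 normalized counts in eggs and 17.8, 34.1 and 55.9 in oocytes (3.68 ± 0.25). Of 31 steroid enzymes, 14 fell and 5 rose (median -0.77, and 0.40 on germ cell genes). The rises were hsd17b12a, which also elongates fatty acids (1.69 ± 0.17, with 6868 to 13947 normalized counts in eggs and 1319 to 4671 in oocytes), stard8 (2.95 ± 0.35), stard7 (1.24 ± 0.19, not called by library totals), LOC118214003 and fdx1 (0.81), the last named after its value had been seen.

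Subunits of the sodium pump went in opposite directions, and solute carriers rose and fell at shares near those of all genes. Of 87 genes of ion pumps, channels and water transport, 16 rose and 24 fell (median -0.25, and 0.91 on germ cell genes). In shares, 18.4% rose and 27.6% fell, beside 26.1% and 30.6% of all genes tested. The sodium pump needs an alpha and a beta subunit, and of its 9 genes tested 2 rose and 4 fell. atp1b1a, a beta subunit, had 14.4, 33.5 and 95.1 normalized counts in eggs against 3108, 5108 and 5739 in oocytes (-7.04 ± 0.33). Another beta subunit, LOC118222773, had 16884, 19304 and 22694 in eggs and 4940, 6676 and 9633 in oocytes (1.53 ± 0.15), and an alpha subunit, LOC118223159, 5931, 7086 and 8232 in eggs and 593, 798 and 940 in oocytes (3.22 ± 0.17). The water channel LOC118233042 (aquaporin-4-like) had 0 to 21.8 normalized counts in eggs and 747 to 6373 in oocytes (-10.13 ± 0.61), and the calcium pump atp2a2a rose by 3.66 ± 0.26. Of 209 solute carriers, 61 rose (29.2%) and 64 fell (30.6%), with a median of -0.09, and 1.10 on germ cell genes. The falls included slc27a6, for fatty acids (-5.90 ± 0.36), and slc4a11 (-4.37 ± 0.29). The rises included LOC118232605 of the organic anion transporters (2.58 ± 0.20), LOC118207944 (member of the magnesium carriers, 3.12 ± 0.26) and LOC118214571 (the iron exporter SLC40A1-like, 3.25 ± 0.28).

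Of 45 apoptosis genes tested, 18 rose and 14 fell (median 0.71, 0.02 by library totals). The inhibitor xiap rose by 2.04 ± 0.16, and so did casp8ap2 (2.19 ± 0.19) and the pore-forming LOC118207640 (BAK-like, 2.59 ± 0.26). The death receptor fas (-2.76 ± 0.33), cideb (-3.48 ± 0.42) and card14 (-5.03 ± 0.64) fell. Of 37 immediate early and stress genes, 19 fell and 5 rose (median -1.64), or 3 rose without pair 7-8, 9-10 or 11-12. Of the rises, 3 encode DDIT4 proteins, which restrain growth signalling through mTOR in mammals: LOC118227066 (4.99 ± 0.38, with 1428 to 4967 normalized counts in eggs and 24.6 to 411 in oocytes), LOC118231043 (3.83 ± 0.46) and ddit4 (1.66 ± 0.18). mych (1.78) and ier3ip1 (1.24), named after their values had been seen, were the others, while junba fell by 3.19 ± 0.29.

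Few abundant genes could be placed close to no change. Among 3723 genes whose mean reached 500 normalized counts, 122 (3.28%) had a 95% interval of the log2 fold change within -0.5 to 0.5. dnajc7, a co-chaperone, averaged 2848 ± 281 normalized counts in eggs and 2861 ± 282 in oocytes (SD, n = 6 each), a log2 fold change of -0.01 ± 0.13. srp54, of the signal recognition particle (-0.11 ± 0.14), ggt1a (0.18 ± 0.14), LOC118209397 (initiation factor 4G1-like, 0.04 ± 0.14) and LOC118237196 (proteinase-activated receptor 2-like, 0.05 ± 0.14) were the next narrowest. This stability is relative to TMM: by library totals dnajc7 was at -0.70 and on germ cell genes at 1.18.

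A few called genes varied strongly between pairs. LOC118222963 (arsenite methyltransferase-like) changed by -11.88 to 1.13 over the pairs, with 0, 1.43 and 257 normalized counts in eggs and 117, 379 and 12747 in oocytes (-7.58 ± 1.75). LOC118222963 lost its call without pair 5-6 or 11-12 (edgeR adjusted p = 0.0144 and 0.0110). LOC118231909 (thrombospondin-1-like) changed by -10.94 to 0.31 and lost its call without pair 5-6 (-5.55). pnp4a, of purine salvage, had 12.6, 385 and 8615 normalized counts in oocytes, with 0 to 3.59 in eggs, so its pairs differed through the oocytes. LOC118211202 (troponin C) changed by -9.30 to -0.15.

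No gene was called by edgeR for a difference between P and DHP pairs in the change. It called 0 of 14957 (0%) at an edgeR adjusted p under 0.01, with 723 at an unadjusted p under 0.05 and a smallest adjusted p of 0.548. limma-voom called 0 (810 at an unadjusted p under 0.05) and DESeq2 3 (892). ppan, a factor of ribosome assembly, was called by DESeq2 (adjusted p = 5.17e-06): it changed by -5.31, -5.64 and -4.95 in the P pairs and -2.12, -1.39 and -2.84 in the DHP pairs, a P minus DHP difference of -3.22 ± 0.46 in edgeR (adjusted p = 0.548). LOC118230073 (profilin-2-like, DESeq2 adjusted p = 0.00426) had a difference of -2.10 ± 0.36, with -4.58, -4.46 and -4.45 in the P pairs and -2.27, -2.18 and -2.84 in the DHP pairs. The next by p were entpd1 (-3.12 ± 0.64), LOC118229580 (cullin-3-like, -2.65 ± 0.55) and LOC118208135 (mitogen-activated protein kinase 14A, -1.74 ± 0.36), with an edgeR adjusted p of 0.957 each. Over the genes called lower, the median of the mean ratio was -2.65 in the P pairs and -1.96 in the DHP pairs, and pairs 3-4 and 7-8, which include oocyte library 3 and egg library 8, are both DHP pairs. From the P pairs alone 7464 genes were called and from the DHP pairs alone 2732, with 2677 called in both.

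Genes that rose and fell differed in length and abundance. The median span on the genome was 14052 bases for genes called higher, 10132 for genes called lower and 12578 for all genes tested. When the genes were divided by span into 4 groups of like size, 19.6, 27.4, 30.3 and 27.2% were higher in eggs (shortest to longest), and 40.2% of the shortest and 30.4% of the next group were lower. Without the ribosomal, respiratory and proteasome lists, which hold many short genes, 20.9% of the shortest group were higher and 36.8% lower. When they were divided by mean count in the same way, 5.48% of the lowest group were higher and 30.8% lower, against 56.9 and 17.7% of the highest group, where more counts stood behind each call. Of 273 long noncoding RNAs, 45 (16.5%) rose and 66 (24.2%) fell. Over the 19 chromosomes 22.6 to 28.7% of genes were higher and 27.4 to 36.9% lower.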

How the data were processed

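The deposited counts give fragments per gene. Per the labels and methods, the authors aligned reads of stranded poly(A) libraries to fAngAng1.pri (TopHat 2.0.13), dropped secondary alignments (SAMtools 1.2) and counted with HTSeq 0.6.1p1. Which strand setting was used is not given in the sources read. The other deposited columns hold the authors' DESeq means, fold changes and p-values and were not used, and 0 per-sample columns stayed unused. The 12 columns were joined by gene name, and all 29999 gene IDs were found in a RefSeq table of names for the same build.

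Eggs were compared with oocytes in 1 fit of 12 libraries with pair as a block, by the quasi-likelihood test of edgeR 4.0.16 with TMM scaling in R 4.3.3. Genes entered through filterByExpr (minimum count 10, minimum total 15) and were called at a Benjamini-Hochberg adjusted p under 0.01. Genes low in both stages did not enter, so list counts and medians leave such members out. Normalized counts are counts at the mean scaled library size, and log2 fold changes are eggs over oocytes with their SE. limma 3.58.1 (voom) and DESeq2 1.42.0 served as other tests, and Python 3.11.15 with pandas 2.3.3 read the tables.

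The study's methods say that oocytes and eggs came from the same females. Replicates are numbered 1 to 3 in the labels, but the columns carry no such number, so libraries were paired by their order. Deviations from the group means had r of 0.259 to 0.395 within these pairs and -0.289 to -0.0498 in other combinations, which was taken as pairing. With 3 libraries per group the deviations sum to 0, so the negative r in other combinations follows in part from the positive r within pairs.

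Named genes are, per direction, the 12 with the largest change among called genes without overlap and with 50 or more normalized counts on average; the 10 most abundant of each stage; for each list, up to 4 of smallest p and 3 that go against its median; and 5 each of stable genes, genes with the largest spread between pairs, genes of smallest p for the steroid difference and genes at 0 counts in 1 stage. The comparison, the genes and the 40 lists, built from gene names and products, were chosen with earlier results of these data known. Alternatives were other scalings, filters and tests, no pairing, a test against a 2-fold change, the pairs of 1 steroid, and each pair left out. Simulated counts of 15629 genes in 6 pairs gave calls for 63 of 63 genes changed 16-fold, 63 of 64 changed 4-fold and 10 of 67 changed 2-fold, and 2 false calls. In this simulation few genes changed, in random directions, at 1 common dispersion and with an otherwise equal make-up of the stages. In the data 56.8% of genes were called and the make-up differed, so the simulation does not measure errors that come from scaling. Not every gene that the rule picks is reported here.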

Additional observations from a re-analysis of the deposited data

Results flagged for a closer look

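Of 302 groups of 6 values checked (log2 ratios of the genes named over the pairs, list medians over the pairs, and library measures), 18 held a value set apart from the other 5, which is 5.96%, where chance gives about 1 in 20. Pairs 3-4 and 5-6 each gave 6 of them, pair 7-8 gave 3, pair 9-10 gave 2 and library 10 gave 1. In pair 3-4 the rise was smaller for LOC118216473 (metalloproteinase inhibitor 2-like, 2.17 against 3.28 to 3.92 in the others), ctnnd1 (2.51 against 4.25 to 5.24), kifc3 (2.20 against 3.26 to 3.88), LOC118214219 (USP37-like, 1.94 against 2.75 to 3.07) and trim47 (2.00 against 3.26 to 3.87), and the median of ribosome biogenesis was 0.31 against -0.71 to -0.46. In pair 5-6 the rise was larger for ccna1 (6.09 against 3.28 to 3.99), rrm2b (3.36 against 2.05 to 2.50) and esco2 (2.43 against 1.92 to 2.04). The medians of leukocyte markers (-4.54 against -1.59 to -0.12), early embryo transcription factors (-0.67 against -0.07 to 0.14) and immediate early and stress genes (-2.55 against -1.66 to -1.16) were lowest in that pair.

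In pair 7-8 the fall was smaller for rpl3 (-2.53 against -4.44 to -3.81), for LOC118225885 (elongation factor 2, -2.25 against -4.45 to -3.80) and in the median of the tubulins (-0.40 against -2.02 to -1.50). In pair 9-10 apol1 rose more (3.85 against 1.97 to 2.53) and the median of steroid enzymes was lower (-1.76 against -0.92 to -0.74). The 10 most abundant genes took 7.72% of the counts in egg library 10 and 6.76 to 7.07% in the other eggs.

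3 genes differed between P and DHP pairs in the change from oocyte to egg by DESeq2 and not by edgeR: ppan (DESeq2 adjusted p = 5.17e-06), LOC118230073 (profilin-2-like, 0.00426) and cax1 (0.00932), whose P minus DHP difference in edgeR was -4.27 (adjusted p = 0.957) and which was named after its value had been seen.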

How the results depend on the processing

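By library totals 2304 genes were called higher and 6904 lower, and on germ cell genes 7006 higher and 1917 lower. A test against a change of 2-fold called 4701 genes, 1976 higher and 2725 lower. The DHP pairs alone called 2732, 1381 higher and 1351 lower. For the steroid difference DESeq2 called 3 genes and edgeR 0. Leaving out each pair in turn gave 7311 (without 5-6) to 9019 genes (without 3-4), 3350 to 4112 higher and 3826 to 4907 lower, and 6808 of the 8489 genes (80.2%) were called each time. Without the replicate block 7619 genes were called, 3522 higher and 4097 lower, and of the genes named ccr12a, LOC118235104 and pfkfb3 lost their call. The pairing moved 1 of 80 list counts by over 1.5 times, the rises in oxidative phosphorylation (3 without the block).

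Under scaling on germ cell genes the change of LOC118220535 turned to 0.73, that of dnajc7 to 1.18 and that of srp54 to 1.07, and by library totals that of ggt1a turned to -0.51, of LOC118209397 to -0.66 and of LOC118237196 to -0.64. None of these 6 genes had been called. Of 80 list counts, 35 moved by over 1.5 times by library totals and 62 on germ cell genes. There, list medians minus that of all genes kept within the spread of the pairs for all 40 lists. A change of scaling moves all genes by nearly the same amount, which this difference removes. The agreement is therefore no test of the scaling. With RLE scaling and with DESeq2 all 250 genes named kept their direction and their call or lack of one.

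With 6 pairs a single value cannot reach an exact p under 0.03125, and after leaving out a pair under 0.0625. Genes with few counts give wide intervals. The search for motifs near transcript ends was not run, since transcripts were not used here. The cause of the differences between settings was not tested beyond the shift of the median.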
